A study of Mus musculus with 67 samples.

Results

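The Hes and Hey genes encode basic helix-loop-helix transcriptional repressors, and the chromatin accessibility of the elements around 8 of them (Hes1, Hes3, Hes5, Hes6, Hes7, Hey1, Hey2 and Heyl) was followed through the differentiation of mouse ES cells into neural progenitors (NPs) of the ventral neural tube. Members were all accessible elements whose nearest gene in the deposited HOMER annotation was 1 of these 8 genes. They numbered 51 of the 111638 elements with accessibility values. Of 57 such elements among 133549 annotated, 6 had no values and were not analysed here. HM1 ES cells were taken to neuromesodermal progenitors (NMPs) at day 3, and then received 100 nM retinoic acid together with the smoothened agonist SAG, which activates Sonic hedgehog signalling, at 0, 10, 100 or 500 nM. Cells were fixed with formaldehyde and transposed, and only then stained for transcription factors inside the cell and sorted by type, NPs being gated as SOX2-positive, so that each library holds sorted cells of a given type. The 67 samples fell into 25 conditions. NMPs at day 3 (3 samples) had no SAG. At days 4, 5 and 6, p0-1 progenitors came from 0 and 10 nM SAG, p2 from 10 and 100 nM, and pMN and p3 from 100 and 500 nM, all of them with retinoic acid. Of these conditions 17 had 3 replicates and 8 had 2. All samples came from a single ES line. Per the study, replicates were independent differentiations of this line, and different types could be sorted from the same dish. The labels do not give the dish of each sample, and tests without a block treat types from a shared dish as independent. Outside the comparisons of SAG, the SAG concentrations of each NP type were pooled within a day. Each n and spread of a type then covers both concentrations. Same-numbered libraries at both concentrations also entered these tests as independent.

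Hes and Hey proteins are best known as effectors of Notch signalling, in which a ligand on a neighbouring cell releases the Notch intracellular domain to join RBPJ on DNA and switch on repressors such as Hes1, Hes5 and Hey1. In the neural tube, Hes1, Hes3 and Hes5 keep progenitors undifferentiated by repressing proneural genes, while Hes6 counteracts Hes1 and favours neurogenesis. Hes7 is a component of the segmentation clock of the presomitic mesoderm, and Hey1, Hey2 and Heyl are related repressors known chiefly from the heart and vessels.

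Accessibility is given throughout as normalised read counts of an element, recovered from the deposited log2-scale (variance-stabilised, VST) values. The reads in elements ranged from 9298160 to 29985325 per sample, with a median of 20254011. An element is named by its gene and its distance in bp from that gene's transcription start site (TSS), negative values lying upstream, so that Hes5 −7788 lies upstream of Hes5 and Hes3 +959 downstream of the TSS of Hes3. The gene name is that of the nearest TSS, which need not be the gene an element acts on. Hes1 had 15 elements, Hey1 10, Hey2 7, Hes5 and Heyl 5 each, Hes3 4, Hes6 3 and Hes7 2. By annotation, 35 were intergenic, 5 at a promoter-TSS, 5 intronic, 4 exonic and 2 at a transcription termination site (TTS), and for 4 of them that intron, exon or TTS belonged to a neighbouring gene. Over all samples, 28 of the 51 members and 31744 of all 111638 elements had a mean above 100 normalised counts. The median range of an element over the 25 conditions was 2.09 VST units among members and 2.32 among all elements. An element entered a comparison when its mean over the samples compared exceeded 100 normalised counts, and was called at an adjusted p below 0.01 (limma, Benjamini-Hochberg over all elements tested) with a fold change above 2. Of the members, 31 entered at least 1 comparison and 20 entered none. In the comparisons below, fold changes are on the log2 scale, and a VST difference is the difference of the group means on the VST scale, with its standard error (SE). A member can pass this filter through the group in which it is high, so counts over tested members do not stand for all 51.

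A library that stood apart was the third replicate of p0-1 at day 4 with 10 nM SAG. It had the highest share of reads in promoter-TSS elements, 40.2%, against 39.1% in the next library, a median of 34.2% and a lowest value of 31.0%. Leaving it out, an alternative chosen after seeing the data, moved none of the member counts of the 5 comparisons that hold it, which were 11 for day 4 NPs against NMPs, 3 for day 6 against day 4, 5 for the interaction of p3 with time, 4 for p3 at day 4 and 1 for pMN against p0-1 at day 4. Among 59 pairs of replicates none was identical, and each pair differed by at least 2.87 times the variance that sampling of reads alone would give. The sort labels were checked at the elements nearest the TSS of marker genes, accessibility being no measure of expression. The elements of the NMP markers T, Cdx2 and Nkx1-2 fell in day 4 NPs, with log2 fold changes of −2.28, −2.50 and −1.76. At day 6, the element of Olig2, the determinant of pMN, was higher in pMN than in p0-1 (log2 fold change 2.51, adjusted p = 5.4e-06), and that of the p0-1 marker Dbx1 was lower (−1.27, adjusted p = 1.25e-05). The element of Nkx2-9, a marker of p3, passed the test in p3 against the other NPs at day 5 (1.01) but not at day 4 (0.74) or day 6 (0.56), where its fold change stayed under 2. It was also higher in pMN than in p0-1, with 1.69 at day 6, when its mean was 2091 normalised counts in pMN and 1914 in p3, a difference that was not tested. The elements of Irx3, a marker of p2, and of Nkx6-1, shared by p2, pMN and p3, were not called in any comparison. Those of the neural genes Sox1 (0.68) and Pax6 (0.69) passed the 2-fold threshold in day 4 NPs only when each sample was centred on its median.

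The elements nearest the 8 TSSs spanned a wide range of levels. Per kb of element, the mean over all samples was highest at Hey1 −345 (1318 normalised counts per kb) and Hes5 +353 (1249), followed by Hes6 −322 (939), Hey2 −662 (810.0), Hes1 −72 (757) and Hes3 +959 (678). Hes7 −1339 (308) and Heyl +72 (125) were lowest on this scale. The order pools all samples and need not hold in each group. Hes7 −1339 had a mean of 2828 normalised counts in the 3 NMP samples and 677 to 944 in the NP groups. At Hes1 −72 (chr16:30063208-30067363, promoter-TSS), NMPs had 3277 ± 269 normalised counts (SD, n = 3), and at day 6 p2 had 3049 ± 279.8 (n = 6), pMN 3354 ± 444 (n = 4), p0-1 3655 ± 208 (n = 5) and p3 3955 ± 277 (n = 4). Neighbours in this order differed by less than the sum of their SDs. At Hes5 +353 (chr4:154960447-154962105, exonic), NMPs had 1104 ± 101, and at day 6 the order was p3 with 1778 ± 112, p2 with 2684 ± 213, pMN with 2828 ± 222 and p0-1 with 2847 ± 413. Here p3 stood below the other types, which did not differ among themselves beyond their spread. Hes3 +959 (chr4:152290213-152291194, intronic) was spread widely over the types, from 173 ± 20.2 in p3 through 408 ± 46.5 in pMN and 504 ± 62.9 in p2 to 924 ± 205 in p0-1 at day 6, against 794 ± 195 in NMPs.

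Among the Hey genes, Hey1 −345 (chr3:8666622-8668145, promoter-TSS) at day 6 was ordered from p2 (2238 ± 88.9) through p0-1 (2414 ± 289) and pMN (2468 ± 109) to p3 (2805 ± 204), with p3 above all but p0-1 samples and the other 3 types overlapping one another, and NMPs had 1553 ± 90.7. Hey2 −662 (chr10:30842188-30844702, promoter-TSS) was highest in pMN, with 2983 ± 80.9 at day 6, against 2205 ± 250.3 in p2, 1945 ± 275 in p0-1, 1878 ± 149 in p3 and 2026 ± 196 in NMPs. All 4 pMN samples of day 6 exceeded every p0-1 sample there, but the fold change stayed under 2 (log2 0.62, adjusted p = 0.000694), and the element was not called. Heyl +72 (chr4:123232990-123234267, promoter-TSS) was highest in NMPs (355 ± 54.9) and between 129 ± 15.0 in p3 and 163 ± 43.2 in p0-1 at day 6. Hes7 −1339 (chr11:69117649-69120580, intergenic) likewise stood at 2828 ± 204 in NMPs and between 677 ± 63.7 in p2 and 858 ± 149.8 in p0-1 at day 6. For Hes6, Hes6 −322 (chr1:91412485-91414603, promoter-TSS) had 2366 ± 195 in NMPs and, at day 6, 2304 ± 153 in p3, 2332 ± 136 in p0-1, 2652 ± 326 in p2 and 2864 ± 139 in pMN. Of these 8 elements, 3 were called in any comparison, namely Hes3 +959 between NP types and Hes7 −1339 and Heyl +72 against NMPs.

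Over the 13 combinations of type and day, the lowest and highest group means of Hes1 −72 were 2569.7 in p2 at day 4 and 3955 in p3 at day 6, and those of Hes5 +353 1104 in NMPs and 2847 in p0-1 at day 6. For Hes3 +959 they were 173 in p3 at day 6 and 1127 in p0-1 at day 4, and for Hes7 −1339 677 in p2 at day 6 and 2828 in NMPs. The p0-1 samples of day 4 had a median of 1015 and a highest value of 1856 at Hes3 +959, and the p0-1 mean at day 5 was 1104. The Hey genes had 1553 in NMPs and 2805 in p3 at day 6 at Hey1 −345, 1631 in p0-1 at day 5 and 2983 in pMN at day 6 at Hey2 −662 and 129 in p3 at day 6 and 355 in NMPs at Heyl +72. Hes6 −322 had 1469.8 in p2 at day 4 and 2864 in pMN at day 6. Of the distal elements named for a large range or change, Hes1 +64437 had 70.3 in NMPs and 2429 in p0-1 at day 6, Hes5 −7788 202 in p3 at day 6 and 1653 in p2 at day 6, Hes5 −4037 12.8 in NMPs and 321 in p0-1 at day 5 and Hey2 −40740 16.5 in NMPs and 1598 in pMN at day 6. At day 5, Hes5 −7788 had 1134 ± 331 in p0-1 (n = 6), 1456 ± 178 in p2 (n = 6), 1267 ± 173 in pMN (n = 5) and 247 ± 58.9 in p3 (n = 5), and Hey2 −40740 had 139 ± 78.5, 385 ± 109, 1073 ± 106 and 157 ± 51.3 in the same order. Here p0-1 and p3 lay within the sum of their SDs of each other at Hey2 −40740, and p2 and pMN above both.

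The step from NMPs to day 4 NPs asked how these loci change as neural identity is taken up, and held the most member calls of the 13 comparisons. Distal elements of Hes1, Hes5, Hey1 and Hey2 that were low in NMPs gained accessibility in NPs, while both Hes7 elements and the TSS of Heyl lost it, only Hes7 −1339 doing so beyond 2-fold once the samples were centred. In these bulk samples, a lower count in every cell cannot be told apart from a smaller share of cells in which the element is open. Of 27 members tested, 11 were called, 7 higher and 4 lower in NPs, against 44.6% of all 30270 elements tested, so the share of members that changed was close to the background. The samples carried a general shift. The median log2 fold change of all elements was −0.34 and became 0.07 once each sample was centred on its median, and the share of called elements that were higher went from 57.2% to 74.5%. Centring left 9 members called, 8 higher and 1 lower. Fold changes after centring are therefore given beside those before it. The median over the tested members was −0.03 before centring.

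Hes1 +64437 (chr16:30129127-30130462, intergenic), a distal element downstream of Hes1, had 43.2, 83.6 and 84.0 normalised counts in the 3 NMP samples and 931 to 1785 (median 1532) in the 23 NP samples. Every NP sample lay above every NMP sample, and the log2 fold change was 4.31 (VST difference 4.10 ± 0.13 SE, adjusted p = 2.98e-20), or 4.71 after centring. Upstream of Hes5, Hes5 −4037 (chr4:154956776-154956996, intergenic) had 10.8, 12.9 and 14.5 normalised counts in the 3 NMP samples and 37.5 to 340.0 (median 182) in the 23 NP samples, and Hes5 −7788 (chr4:154952535-154953735, intergenic) had 190.2, 222 and 233 normalised counts in the 3 NMP samples and 243 to 1601 (median 925) in the 23 NP samples. Neither overlapped, with log2 fold changes of 3.73 (adjusted p = 3.41e-11) and 1.95 (adjusted p = 5.24e-11), and of 4.11 and 2.34 after centring. The 5 p3 samples were lowest among the NPs at both, and the p3 samples of Hes5 −7788 reached only 243, 253, 315, 319 and 326. Hey1 −53916 (chr3:8720564-8721345, intergenic) had 0, 4.85 and 5.38 normalised counts in the 3 NMP samples and 13.0 to 291 (median 131) in the 23 NP samples, with no overlap and a log2 fold change of 5.30 (5.70 after centring, VST difference 3.51 ± 0.35, adjusted p = 6e-10). Because the NMP counts there were close to 0, the size of this fold is uncertain, and without replicate 1 the element fell below the mean filter. Hey2 −40740 (chr10:30883125-30883921, intergenic) had 14.5, 16.2 and 18.9 normalised counts in the 3 NMP samples and 106 to 1504 (median 316) in the 23 NP samples, again without overlap (log2 fold change 4.95, 5.37 after centring, VST difference 3.83 ± 0.22, adjusted p = 5.07e-15). The remaining higher members, named after their values were seen, were Hes3 −1660 (2.40, 2.80 after centring) and Hes5 −2470 (1.20, 1.60 after centring), and all 23 NP samples exceeded the NMP samples at both.

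Among the members that entered the comparison, loss of accessibility was most pronounced at Hes7. The TSS-proximal element Hes7 −1339 had 2611, 2857 and 3016 normalised counts in the 3 NMP samples and 567 to 1440.3 (median 884) in the 23 NP samples. All NP samples lay below all NMP samples (log2 fold change −1.70, VST difference −1.71 ± 0.15, adjusted p = 2.82e-11), and −1.30 remained after centring, so this was the lower member still called there. Hes7 −10025 (chr11:69109613-69111243, at the TTS of Per1) had 548, 586 and 727 normalised counts in the 3 NMP samples and 219 to 337 (median 286) in the 23 NP samples, and Heyl +72 had 312, 336 and 417 normalised counts in the 3 NMP samples and 93.1 to 262 (median 154) in the 23 NP samples. Neither overlapped, but their log2 fold changes of −1.14 and −1.20 became −0.73 and −0.79 after centring, under the 2-fold threshold. Heyl +72 also fell under it without replicate 1, at −0.93. The other lower member, Hes1 +5021, chosen after its values were seen, went from −1.10 to −0.70 with centring and to −0.82 without replicate 1, not called in either case, and 22 of its 23 NP samples lay below the NMP samples. A further element, Hes1 −9584 (chr16:30055473-30056074, intergenic), named after its values were seen, was not tested because its mean was below the filter. It had 143, 165 and 219 normalised counts in the 3 NMP samples and 2.63 to 14.1 (median 8.47) in the 23 NP samples, and all NP samples lay below all NMP samples. Hey1 −18291, also chosen after its values were seen, was called higher after centring (1.30) but not before (0.90). At 4 elements the sign depended on centring, Hes1 −72 going from −0.25 to 0.16, Hes3 +959 from −0.03 to 0.34, Hey1 −50674 from −0.22 to 0.18 and Hey2 −662 from just under 0 to 0.40, and none of them was called. The Hes7 −1339 element lies at a clock gene of the presomitic mesoderm, and 1 of the 2 markers of that tissue, Tbx6, passed the filter, with −0.48 before and −0.07 after centring, not called. The summed counts of the Tbx6 and Msgn1 elements, neither at 0 and Tbx6 the more abundant, were 764, 821 and 824 in NMPs and 583 to 687 (median 613), 542 to 595 (median 567), 534 to 671 (median 595) and 520.3 to 626 (median 542) in p0-1, p2, pMN and p3 at day 4. The 3 neuronal markers Tubb3, Elavl3 and Stmn2 were called lower in day 4 NPs (−1.06, −1.11 and −1.01), none of them after centring. Their summed counts were 3155, 3672 and 3743 in NMPs and 1289 to 2281 (median 1678) in the day 4 samples of p0-1, p2 and pMN. The elements of the floor plate genes Foxa2 and Shh summed to 1524, 1810 and 1975 in NMPs. At day 4 this sum was 420.4 to 1332 in p0-1, p2 and pMN and 1236 to 1734 in p3. The part of any of these lists in these changes was not tested.

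Between day 4 and day 6, few of the members tested were called over the 4 NP types pooled. A distal Hes1 element and a distal Hey1 element gained accessibility and an element within Hes3 lost it. Of 28 members tested, 3 were called (2 higher, 1 lower), against 22.3% of all 31374 elements tested, a smaller share than the background. At an unadjusted p below 0.05 (limma) there were 23, against 83.5% of all elements tested. Members below the mean filter were not tested. The median log2 fold change was 0.38 over the members and 0.23 over all elements tested, the latter becoming −0.03 after centring, with the share of higher calls going from 71.2% to 55.8%. Hey1 −69431 (chr3:8736030-8736909, intergenic) had 34.2 to 125 (median 53.3) normalised counts in the 23 day 4 samples and 42.4 to 355 (median 179.7) in the 19 day 6 samples. The groups overlapped, 14 of the 19 day 6 samples lying above every day 4 sample, and p0-1 stayed lowest at day 6 with 42.4, 68.7, 75.3, 91.3 and 115. Its log2 fold change was 1.59 (VST difference 1.34 ± 0.10, adjusted p = 8.91e-15), and 1.31 after centring. Hes1 +55520 (chr16:30120401-30121353, intergenic) went from 121 to 306 (median 175) to 199 to 902 (median 397), with 14 of 19 samples above every day 4 sample. Its log2 fold change of 1.25 (adjusted p = 1.35e-13) became 0.99 after centring and was then not called. Hes3 +4723 (chr4:152285675-152288203, exonic) went from 257 to 1117 (median 473) to 140.1 to 650.3 (median 188), and 16 of 19 day 6 samples lay below every day 4 sample (log2 fold change −1.11, adjusted p = 1.51e-12, −1.36 after centring). Without replicate 3 the count of called members was 5, against 22.5% of all elements, with Hey1 −50674 and Hey1 −18291 added. The signs of Hes7 −10025 (0.12 before and −0.15 after centring) and Hey2 −662 (0.16 and −0.12) depended on centring, neither being called. The summed counts at the neuronal markers Tubb3, Elavl3 and Stmn2, none of which was called, were 1289 to 2281 (median 1678) in the 18 samples of p0-1, p2 and pMN at day 4 and 1656 to 4654 (median 2924) in the 15 at day 6, and 1357 to 2029 (median 1708) and 1924 to 3149 (median 2211) in p3. Tubb3 was the most abundant. The NPs were gated as SOX2-positive, and the labels give no share of neurons in a sample. The part of these markers in the changes was not tested.

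The course over time differed between p3 and the other NPs at 5 members. Distal elements of Hes1, Hes5 and Hey2 had lower means at day 6 than at day 4 in p3 and higher or similar means in p0-1, p2 and pMN. An interaction contrast, the change of p3 from day 4 to day 6 minus the mean change of the other 3 types, called 5 of 28 members (1 higher, 4 lower in p3), against 11.1% of all 31374 elements tested. It uses the same samples as the day 4 and day 6 comparisons of p3. The test takes this contrast on the VST scale. In the log2 differences given below, the other 3 types enter as the average of their mean normalised counts. At Hes1 +64437, the mean went from 1013 to 644 in p3, 1508 to 2429 in p0-1, 1382 to 1789 in p2 and 1689 to 2253 in pMN, with a difference in log2 change of −1.15 (adjusted p = 7.98e-08). The 4 p3 samples of day 6 were the lowest NP samples of that day. Hes5 −7788 went from 291 to 202 in p3 and from 1000.2 to 1611 in p0-1, 1079 to 1653 in p2 and 951 to 1631 in pMN (difference −1.22, adjusted p = 2.29e-05). Hey2 −40740 went from 241 to 129 in p3, and from 170.0 to 287 in p0-1, 527 to 628 in p2 and 1110.3 to 1598 in pMN (difference −1.38, adjusted p = 0.00159). Without replicate 3 its difference was −0.84 with an adjusted p of 0.178. Hes5 −4037 went from 58.9 to 23.1 in p3, with 204 to 201 in p0-1, 215 to 191 in p2 and 197 to 212 in pMN. Its difference (−1.32, adjusted p = 0.00938) passed narrowly and did not pass when replicate 1, 2 or 3 was left out (adjusted p = 0.0153, 0.162 and 0.0241), nor with voom (adjusted p = 0.239). Hes3 −1660, chosen after its values were seen, moved the other way. Its mean went from 1166 to 1712 in p3 and from 2197 to 1561 in p0-1, 1981 to 1199 in p2 and 1979.9 to 1342 in pMN (difference 1.14, adjusted p = 4.04e-08). Without replicate 1 the difference was 0.96, under 2-fold, and not called. The count of called members was 3 without replicate 1 and 3 without replicate 3, against 9.48% and 8.44% of all elements.

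The p3 progenitors were the most ventral type. From day 4 on they had lower accessibility than the other NPs at distal Hes5 elements and at the TSS-proximal element of Hes3. At a distal Hes1 element p3 was lower by more than 2-fold only at day 6. At a distal Hey2 element the mean of p3 was below those of pMN and p2 but, at days 4 and 5, not below that of p0-1. Limma called 4 of 27 members at day 4, all of them lower in p3, against 7.21% of all 29706 elements tested. For day 5 it was 5 of 28 (1 higher, 4 lower) against 18.3% of all 31918 elements tested, and for day 6, 7 of 30 (1 higher, 6 lower) against 23.8% of all 32792 elements tested. The share of members called at days 5 and 6 was thus near the background, and lower calls also prevailed over all elements, with 30.1% of calls higher at day 6. The median log2 fold change at day 6 was −0.23 over the members and −0.05 over all elements tested. Centring gave 8 called members at day 6, the additional call being Hey1 −53916, whose log2 fold change was 0.91 before and 1.00 after. Some untested elements, named after their values were seen, were higher in p3 at day 6. Hey2 −103947 had 54.3 to 114 normalised counts in p3 and at most 19.5 in other NPs, and Hey2 −167249 34.0 to 45.0 and at most 14.7. Hey1 −76502 had 20.8 to 46.8 and at most 13.0, and Hes1 +48286 30.0 to 92.2 and at most 29.9. The untested Hey2 −132020 was lower, with means of 0.80 in p3 and 6.66 to 38.2 in the others.

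At day 6, Hes5 −4037 had 19.8, 20.4, 20.8 and 31.5 normalised counts in the 4 p3 samples and 117 to 305 (median 201) in the 15 samples of the other NPs. The groups did not overlap (log2 fold change −3.12, VST difference −2.59 ± 0.19, adjusted p = 1.66e-09). Hes5 −7788 had 125, 199, 215 and 269 normalised counts in the 4 p3 samples and 1153 to 2012 (median 1722) in the 15 samples of the other NPs, again without overlap (log2 fold change −3.01, VST difference −2.96 ± 0.17, adjusted p = 4e-11). Samples of NMPs had 190.2, 222 and 233 at Hes5 −7788, a range that the p3 samples of day 6 spanned. Both Hes5 elements were called at all 3 days, Hes5 −7788 with −1.79 at day 4 and −2.38 at day 5, and Hes5 −4037 with −1.80 and −2.67. At the TSS, Hes5 +353 was not called at any day, although its 4 p3 samples of day 6 (1618, 1805, 1813 and 1876) lay below all 15 others, which ran from 2322 to 3355 (median 2779.6), with a log2 fold change of −0.65 (adjusted p = 9.14e-07). For Hes1, Hes1 +64437 had 479, 543, 767 and 786 normalised counts in the 4 p3 samples and 1646 to 2691 (median 2072) in the 15 samples of the other NPs. It did not overlap at day 6 (log2 fold change −1.74, adjusted p = 1.66e-10) and was not called at day 4 (−0.59) or day 5 (−0.82), where the fold change was under 2. At day 5 the 5 p3 samples, with 752 to 1195, also lay below every other NP sample, the lowest of which had 1397. At day 4 the groups overlapped.

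Hes3 +959 had 147, 171, 179 and 195 normalised counts in the 4 p3 samples and 368 to 1250.1 (median 534) in the 15 samples of the other NPs. It did not overlap at any of the 3 days, with log2 fold changes of −1.27 at day 4, −1.65 at day 5 and −1.82 at day 6 (adjusted p = 4.34e-06, 3.87e-12 and 6.79e-10). Hey2 −40740 had 55.3, 85.5, 166 and 208 normalised counts in the 4 p3 samples and 129 to 1773 (median 508) in the 15 samples of the other NPs. Here the groups overlapped, since the low end of the other NPs was p0-1, whose 5 samples had 129, 243, 319, 347 and 396, and 2 of the 4 p3 samples lay below them all. The log2 fold change was −1.32 at day 4, −1.76 at day 5 and −2.70 at day 6 (adjusted p = 0.000351, 0.000109 and 1.04e-06) and the 4 pMN samples of day 6 were the highest of all. The call of day 4 was lost without replicate 1 (adjusted p = 0.0247). At days 4 and 5 the mean of p3 (241 and 157) was above that of p0-1 (170.0 and 139), within the sum of their SDs. Heyl +2461 (chr4:123235718-123236316, intronic) had 16.5, 27.7, 31.3 and 34.6 normalised counts in the 4 p3 samples and 34.1 to 345 (median 127) in the 15 samples of the other NPs, with 3 of 4 p3 samples below every other sample (log2 fold change −2.56, adjusted p = 6.45e-05), and was not called with voom (adjusted p = 0.0319). Its mean was under 100 at days 4 and 5, when it was not tested. At 2 distal Hey1 elements the difference went the opposite way. Hey1 −50674 (chr3:8717167-8718257, intergenic) had 1443, 1485, 1586 and 1768 normalised counts in the 4 p3 samples and 582 to 862 (median 688) in the 15 samples of the other NPs, without overlap (log2 fold change 1.13, VST difference 1.12 ± 0.07, adjusted p = 2.35e-10), after 0.45 at day 4 and 0.85 at day 5. Hey1 −53916 was called at day 5, when the 5 p3 samples had 264, 309, 374, 544 and 548 and the 17 others 78.3 to 304 (median 162). At day 5, 4 of the 5 p3 samples exceeded all others (log2 fold change 1.19, adjusted p = 8.34e-06). At day 6 centring changed the sign of Hes7 −1339 (−0.08 to 0.00) and of Hey1 −69431 (−0.04 to 0.07), neither being called.

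The elements of 2 floor plate genes, Foxa2 and Shh, were called higher in p3 at days 5 and 6 and in the interaction with time, Foxa2 with log2 fold changes of 1.82 and 2.56 at days 5 and 6 and Shh with 1.35 and 2.01. Summed over both elements, the 4 p3 samples of day 6 had 1433, 1473, 2273 and 2592 normalised counts, and the 15 other NP samples 263 to 696 (median 336). At day 5 the 5 p3 samples had 1255, 1371, 1541, 1667 and 1840.4 against 336 to 616 (median 431), and at day 4 1236, 1282, 1286, 1542 and 1734 against 420.4 to 1332 (median 786). The groups overlapped only at day 4, and the NMP samples had 1524, 1810 and 1975. Foxa2 was the more abundant in every group, and neither was at 0. Among the neural progenitor and p0-1 markers, the elements of Pax6 (−1.04), Dbx1 (−1.26) and Dbx2 (−1.87) were lower in p3 at day 6. Foxa2 is not confined to the floor plate, being known also from early p3 progenitors, and p3 cells were sorted by a set of transcription factors that define this type. The part of these markers in the lower accessibility of the Hes and Hey elements in p3 was not tested.

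Within the more dorsal types, the pMN progenitors that give rise to motor neurons differed from p0-1 at elements of Hey2, Hey1, Heyl, Hes3 and Hes1. The distal element Hey2 −40740 was several times more accessible in pMN at all 3 days, distal Hey1 elements followed by days 5 and 6, and Hes3 elements were lower. The SAG concentrations of pMN (100 and 500 nM) and p0-1 (0 and 10 nM) do not overlap, so type and concentration cannot be told apart. For day 4, 1 of 27 members was called, against 3.9% of all 29762 elements tested. For day 5, 5 of 29 were called (2 higher, 3 lower) against 11.3% of all 31863 elements tested, and for day 6, 6 of 30 (5 higher, 1 lower) against 12.4% of all 32346 elements tested. The median log2 fold change at day 6 was 0.02 over the members and −0.09 over all elements tested. The count at day 6 was 5 without replicate 1, 1 without replicate 2 and 3 without replicate 3, against 12.8%, 3.83% and 6.48% of all elements, and pMN then had as few as 2 samples.

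At day 4, Hey2 −40740 had 902 to 1504 (median 1072) normalised counts in the 6 pMN samples and 106 to 252 (median 176) in the 6 p0-1 samples (log2 fold change 2.71, adjusted p = 4.02e-07). At day 6 it had 1487, 1490.0, 1643 and 1773 normalised counts in the pMN samples and 129, 243, 319, 347 and 396 in the p0-1 samples (log2 fold change 2.48, VST difference 2.51 ± 0.26, adjusted p = 9.07e-05), after 2.95 at day 5. pMN and p0-1 did not overlap at any of the 3 days. The 6 p2 samples of day 6, with 384 to 860.2 (median 632), lay below pMN and overlapped p0-1 at their low end. Hey1 −69431 had 211, 229, 285 and 355 normalised counts in the pMN samples and 42.4, 68.7, 75.3, 91.3 and 115 in the p0-1 samples at day 6. There was no overlap (log2 fold change 1.78, adjusted p = 0.000659), but the adjusted p was 0.0103 without replicate 2 and 0.0135 without replicate 3, no longer under 0.01. Heyl +2461 had 127, 142, 296 and 300.1 normalised counts in the pMN samples and 34.1, 36.7, 43.1, 65.1 and 124 in the p0-1 samples. All pMN samples were above all p0-1 samples, the nearest being 127 and 124 (log2 fold change 1.84, adjusted p = 0.00657), and the call was lost with voom (adjusted p = 0.01 after rounding), without replicate 1 (0.011) and without replicate 2 (0.0305), the element falling below the mean filter without replicate 3. Hey1 −53916 was called at day 5 (1.05, adjusted p = 0.00071) and day 6 (1.41, adjusted p = 0.0049), the latter with adjusted p of 0.0115, 0.0149 and 0.0238 when replicate 1, 2 or 3 was left out.

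The remaining higher call of day 6 was Hey1 −38999, chosen after its values were seen, with 1.66 (adjusted p = 0.000359), a call that was lost without replicate 2 (adjusted p = 0.0219). Lower in pMN was Hes3 +959, which at day 6 had 368, 368, 444 and 453 normalised counts in the pMN samples and 735, 817, 822, 994 and 1250.1 in the p0-1 samples. The types did not overlap at day 5 (log2 fold change −1.19, adjusted p = 6.41e-06) or day 6 (−1.18, adjusted p = 0.000327), but the adjusted p at day 6 was 0.0275 without replicate 2. Hes3 +4723 had 140.1, 156, 160.5 and 178 normalised counts in the pMN samples and 240.0, 248, 285, 449 and 650.3 in the p0-1 samples at day 6. It did not overlap either, was called at day 5 (−1.08, adjusted p = 0.000711, but under 2-fold at −0.99 without replicate 1), and at day 6 missed the threshold (log2 fold change −1.24, adjusted p = 0.0135) but passed it with the replicate number as a block (adjusted p = 0.00871). The other lower member of day 5, Hes1 +34156, chosen after its values were seen, had 38.6, 45.3, 48.3, 53.2 and 58.8 normalised counts in the pMN samples and 115, 142, 157, 201, 226 and 249 in the p0-1 samples (log2 fold change −1.89, adjusted p = 1.06e-05). The Hes5 elements that distinguished p3 did not separate these types, Hes5 −7788 having 1289, 1624, 1722 and 1888 normalised counts in the pMN samples and 1153, 1169, 1794, 1927 and 2012 in the p0-1 samples at day 6 (log2 fold change 0.02, adjusted p = 0.87, and −0.04 after centring). Hey1 −345 was also near 0, with 0.03 before and −0.04 after centring. The summed counts at the 3 neuronal markers, of which Tubb3 was the most abundant and none was called, were 2920.1, 2924, 3697 and 3739 in pMN and 1656, 2061, 2347, 2513 and 2749 in p0-1 at day 6, and 2505, 2528, 2725, 2729.6 and 2743 and 1264 to 1974 (median 1761) at day 5. Their part in these differences was not tested.

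The concentration of SAG was compared within each type at day 5. Without a block, limma called no member in any type. Between 0 and 10 nM in p0-1 it was 0 of 29 tested, against 0.00318% of all 31401 elements tested. Between 10 and 100 nM in p2 it was 0 of 28, against 0% of all 32103 elements tested. Between 100 and 500 nM in pMN it was 0 of 29, against 0% of all 32239 elements tested. Between the same concentrations in p3 it was 0 of 27, against 0% of all 31179 elements tested. At an unadjusted p below 0.05 there were 12, 4, 0 and 0 members, against 15.1%, 11.6%, 2.65% and 0.491% of all elements tested, and voom on the recovered reads called 0 in each comparison. A test that finds nothing with 2 or 3 samples a group does not show that the values were equal. In p0-1, Hey2 −40740 had 65.8, 73.2 and 86.7 normalised counts at 0 nM and 149.5, 199 and 260.2 at 10 nM. The 3 samples at 10 nM all lay above the 3 at 0 nM, and the log2 fold change was 1.43 (adjusted p = 0.0426). With the replicate number as a block, same-numbered samples deviating together here, the adjusted p was 0.000171 and this element was the 1 member called, among 317 calls over all elements in place of 1. Hes5 −7788 had 752, 865 and 913 at 0 nM and 1346, 1372 and 1555 at 10 nM, likewise without overlap but with a fold change under 2 (log2 0.76, adjusted p = 0.0268). At day 6, untested, the p0-1 samples of this element had 1153 and 1169 at 0 nM and 1794, 1927 and 2012 at 10 nM. In p2, Hey2 −40740 had 229, 287 and 369.9 at 10 nM and 436, 492 and 493 at 100 nM (log2 fold change 0.68, adjusted p = 0.262). The block raised the calls over all elements in p2 from 0 to 522 without calling a member, and without replicate 3 there was 1 member called, Heyl +2461, lower at 100 nM, among 653 calls over all elements (2.04%), 634 of them lower. The summed counts at the 3 neuronal markers in p2 at day 5 were 1851, 3752 and 3820.1 at 10 nM and 1674, 2403 and 2541 at 100 nM, the lowest of each being replicate 3, and their part was not tested. In pMN, Hey2 −40740 had 929.7, 1019 and 1193 at 100 nM and 1068 and 1158 at 500 nM, and in p3 91.5, 126 and 226 and 163 and 179. In pMN and p3 the concentrations overlapped.

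Hes6, the antagonist of the family, had no called element, but only 1 of its 3 elements entered a comparison. Hes6 −7123 (chr1:91419892-91420799, in an intron of Per2), the Hes6 element with the largest range over conditions, stayed below the mean filter, with 15.9 ± 1.73 normalised counts in p0-1, 14.3 ± 5.12 in p3, 44.1 ± 12.2 in pMN and 52.3 ± 17.6 in p2 at day 6, against 19.0 ± 4.21 in NMPs. Its mean went from 10.3 to 52.3 in p2 and from 9.48 to 44.1 in pMN between days 4 and 6, untested. The element that entered was Hes6 −322, the only 1 of the 3 with a mean above 100. The lowest and highest mean of an element over all samples were 12.7 and 3148 normalised counts for Hes1, 307 and 1587 for Hes3, 184 and 2072 for Hes5, and 316 and 902 for Hes7. They were 11.2 and 2008 for Hey1, 9.85 and 2037 for Hey2, 36.6 and 234 for Heyl and 18.7 and 1991 for Hes6. Over the 13 comparisons, 19 of the 31 members tested were called at least once, against 51.5% of the 44223 elements tested in any comparison. For promoter-TSS elements it was 1 of 5 members, against 17.7% of 7248.

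Other genes of the pathway were read at the element nearest their TSS, for 40 genes in 5 lists (Notch receptors and ligands, modulators and processing enzymes, nuclear partners, proneural genes and other bHLH-Orange genes). From NMPs to day 4 NPs, 0 of 38 tested rose and 7 fell, against 44.6% of all 30270 elements tested called in either direction, with a median log2 fold change of −0.44 against −0.34 over all elements. The 7 were the ligand genes Dll3 (−1.88) and Dll4 (−1.75), the coactivator Maml2 (−1.85), the corepressor Tle2 (−1.19), and Hes2 (−1.50), Helt (−1.82) and Bhlhe40 (−1.46). After centring, Tle2 was no longer called, at −0.78. Between days 4 and 6, 1 of 37 rose, the proneural gene Neurog1 (1.83, adjusted p = 5.31e-22), and 0 fell, against 22.3% of all 31374 elements tested. In p3 against the other NPs, 2 of 37 were lower at day 5 and 2 of 37 at day 6, in both cases the proneural genes Neurog2 (−1.17 and −1.56) and Neurod1 (−1.15 and −1.29), and none was higher, against 18.3% of all 31918 elements tested and 23.8% of all 32792 elements tested. Neurod1 was higher in pMN than in p0-1 at day 5 (1.11, adjusted p = 2.03e-05), as the 1 gene of 37, against 11.3% of all 31863 elements tested. The share called was below that of all elements in each of these comparisons. That background is not like for like, since the genes were read only at the element nearest their TSS. Of 7248 promoter-TSS elements tested in any comparison, 17.7% were called at least once, against 51.5% of all 44223 elements. A promoter-TSS share for each single comparison is not given here, so the lower share cannot be ascribed to the pathway. In the remaining comparisons, p3 at day 4, pMN against p0-1 at days 4 and 6, the interaction and the 4 of SAG, limma and voom each called 0 of 37 genes tested. At an unadjusted p below 0.05 there were 8 genes for p3 at day 4, 1 and 12 for pMN at days 4 and 6, 8 for the interaction, against 35.2%, 23.8%, 40.2% and 30.4% of all elements tested, and 5, 4, 0 and 0 for SAG in p0-1, p2, pMN and p3, against 15.1%, 11.6%, 2.65% and 0.491%.

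Across the 25 condition means on the VST scale, the promoter-TSS elements most like each TSS-proximal element were sought among 6977. For Hes1 −72 they were those of Ppp4r1 (r = 0.95), Dipk1a (r = 0.94) and Gga1 (r = 0.93). For Hes5 +353 they were Gm21057 (r = 0.96), Dcun1d4 (r = 0.95) and the neighbouring gene Pank4 (r = 0.94), and for Hes3 +959 Folh1 (r = 0.91), Top1mt (r = 0.90) and Rbm20 (r = 0.90). Hes7 −1339 was most like Mir1949 (r = 0.96), Krtcap3 (r = 0.96) and Celf5 (r = 0.96), and Hey1 −345 like Nr4a3 (r = 0.98), Zbtb7c (r = 0.97) and Dyrk1b (r = 0.97). Hes6 −322 came next to Nova2 (r = 0.97), Trp53bp1 (r = 0.97) and E2f1 (r = 0.97), and Heyl +72 to Itpripl1 (r = 0.92), Anxa6 (r = 0.91) and Cybc1 (r = 0.90). Hey2 −662 had the weakest likeness, to Siah3 (r = 0.86), Gm11627 (r = 0.84) and Gm4262 (r = 0.78). These r values are Pearson's, between elements read in the same libraries, and serve as a description.

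Sequence was read from the mouse genome build GRCm38.p6, whose chromosomes held all 111638 elements with values. In a window of 300 bp at the centre of each element (leaving out those with an unknown base), 8 motifs were searched on both strands, an N standing for any base. The letters GTGGGAA, bound by RBPJ, were in 12 of 51 member windows (23.5%) and 6.82% of all 111634 windows. The class C E-box CACGNG, a Hes and Hey binding sequence, was in 16 of 51 member windows (31.4%) and 18.0% of all 111634 windows. The N-box CACNAG, also bound by Hes proteins, was in 23 of 51 member windows (45.1%) and 45.7% of all 111634 windows, and CACGAG fits both of these. For SOX (CATTGTT) it was 5 of 51 member windows (9.80%) and 7.61% of all 111634 windows, for CDX (TTTATNG) 8 of 51 member windows (15.7%) and 13.4% of all 111634 windows, for GLI (ACCACCC) 4 of 51 member windows (7.84%) and 4.27% of all 111634 windows, for FOXA (TGTTTAC) 2 of 51 member windows (3.92%) and 4.95% of all 111634 windows and for TCF/LEF (CTTTGAT) 1 of 51 member windows (1.96%) and 5.04% of all 111634 windows. The 12 windows with the RBPJ letters were those of Hes1 −72, Hes5 −14448, −7788 and −2470, Hes7 −10025, Hey1 −69431, −50674, −18291 and −345, Hey2 −167249, and Heyl +72 and +6199. A match to such short letters is a description of the sequence and not a binding site, and a window without them says nothing about the factor.

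RefSeq promoters, 250 bases before to 50 after the gene start, were at hand for 4 of the 8 genes (Hes5, Hes6, Hes7 and Hey2, 5 promoters in all), of which 3 held the RBPJ letters, as did 6.38% of 32851 promoters. Those 3 are shown because their TSS elements differed in course, that of Hes7 being called lower after the NMP stage and those of Hes5 and Hey2 not being called. Each is written 5′ to 3′ on the strand of its gene, with the RBPJ letters, or their reverse complement TTCCCAC, in capitals.
Hes5 promoter, chr4:154960673-154960972, plus strand: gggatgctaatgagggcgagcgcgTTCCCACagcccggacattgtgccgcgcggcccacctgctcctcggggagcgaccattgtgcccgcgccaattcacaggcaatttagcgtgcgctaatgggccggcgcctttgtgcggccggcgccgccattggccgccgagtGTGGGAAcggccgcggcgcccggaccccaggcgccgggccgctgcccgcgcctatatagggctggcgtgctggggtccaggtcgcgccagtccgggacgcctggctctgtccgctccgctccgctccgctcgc
Hey2 promoter, chr10:30842734-30843033, minus strand: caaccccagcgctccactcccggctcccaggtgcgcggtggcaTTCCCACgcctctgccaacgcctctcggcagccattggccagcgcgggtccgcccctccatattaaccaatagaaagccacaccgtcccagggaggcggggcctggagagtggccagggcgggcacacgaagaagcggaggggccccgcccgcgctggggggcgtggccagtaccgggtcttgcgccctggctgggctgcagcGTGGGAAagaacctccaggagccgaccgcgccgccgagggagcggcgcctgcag
Hes7 promoter, chr11:69120203-69120502, plus strand: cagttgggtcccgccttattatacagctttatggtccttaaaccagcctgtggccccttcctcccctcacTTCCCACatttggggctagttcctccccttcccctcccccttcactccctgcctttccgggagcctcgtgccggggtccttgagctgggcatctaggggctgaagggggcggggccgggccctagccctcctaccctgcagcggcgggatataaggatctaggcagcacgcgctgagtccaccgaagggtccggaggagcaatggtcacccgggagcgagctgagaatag

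Central windows are shown for 4 elements on which comparisons turned, all on the plus strand of GRCm38.p6. In Hes1 −72 the capitals mark the RBPJ letters and the N-box letters on either strand, and in Hes1 +64437 the SOX letters. In Hes5 −7788, the element that was low in p3, the reverse complement of the RBPJ letters runs into the GLI letters, which share their AC, as TTCCCACCACCC. Not marked as such are the class C E-box letters (4 matches in Hes1 −72 and 1 in Hes5 −7788) and the 1 N-box of Hes5 −7788. Hey2 −40740, the element that was high in pMN, held none of the 8 motifs and is printed without capitals.
Hes1 −72 element, chr16:30065135-30065434, plus strand: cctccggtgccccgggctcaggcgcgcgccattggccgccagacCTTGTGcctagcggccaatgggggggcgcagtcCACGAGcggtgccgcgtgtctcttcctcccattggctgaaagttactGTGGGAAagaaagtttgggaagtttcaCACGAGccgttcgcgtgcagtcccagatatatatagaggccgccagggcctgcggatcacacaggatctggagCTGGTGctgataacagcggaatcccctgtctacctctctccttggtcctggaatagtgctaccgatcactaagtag
Hes1 +64437 element, chr16:30129644-30129943, plus strand: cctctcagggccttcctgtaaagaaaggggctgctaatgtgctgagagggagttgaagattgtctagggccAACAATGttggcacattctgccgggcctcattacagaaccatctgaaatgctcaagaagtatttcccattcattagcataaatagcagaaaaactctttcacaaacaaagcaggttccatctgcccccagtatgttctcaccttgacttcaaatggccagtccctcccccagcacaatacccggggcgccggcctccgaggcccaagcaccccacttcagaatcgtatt
Hes5 −7788 element, chr4:154952985-154953284, plus strand: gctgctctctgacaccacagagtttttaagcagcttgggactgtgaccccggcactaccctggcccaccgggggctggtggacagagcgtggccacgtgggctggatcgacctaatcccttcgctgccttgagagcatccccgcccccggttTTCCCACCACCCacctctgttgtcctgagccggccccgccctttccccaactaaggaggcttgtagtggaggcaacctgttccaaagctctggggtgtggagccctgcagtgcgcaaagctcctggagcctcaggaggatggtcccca
Hey2 −40740 element, chr10:30883373-30883672, plus strand: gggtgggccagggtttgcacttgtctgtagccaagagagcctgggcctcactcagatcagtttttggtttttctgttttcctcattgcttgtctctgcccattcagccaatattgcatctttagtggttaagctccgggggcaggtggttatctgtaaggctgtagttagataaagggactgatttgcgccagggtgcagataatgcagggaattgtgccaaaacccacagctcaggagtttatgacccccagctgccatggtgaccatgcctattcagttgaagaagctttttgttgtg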

How the data were processed

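ATAC-seq accessibility was measured in 67 samples of sorted cells. Per the submitters' processing notes and the study's methods, the authors aligned reads to mm10, called peaks with MACS, merged them into consensus elements and counted reads per element, and the deposited log2 values are DESeq2 variance-stabilised counts after scaling by size factors. The deposited HOMER annotation gave the nearest gene, the distance to its TSS and the class of each element. From these values, normalised counts and reads were recovered by inverting the transformation. All values (100.0% in every sample) came out as whole reads, within 3.47e-10 of a whole number, and total 9298160 to 29985325 reads in elements per sample (median 20254011). Elements with few reads have the least precise values.

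Each comparison was fitted with limma 3.58.1 (R 4.3.3) on the VST values of the samples it concerns, with a variance trend, two-sided, without a block. P-values were adjusted by Benjamini-Hochberg over all elements with a mean above 100 normalised counts. Calls required an adjusted p below 0.01 together with a fold change above 2 between mean normalised counts. Tables were made with Python 3.11.15, numpy 2.4.6 and pandas 2.3.3, and the fits were tested on simulated data, with an outcome that is not reported here. Elements named with values are the nearest to each TSS, up to 3 members with the largest called change in each direction for day 4 NPs against NMPs, day 6 against day 4, p3 at day 6 and pMN at day 6, and the element of each gene with the largest range over conditions. The members and the gene lists were chosen with earlier results of these data known. Marker and pathway genes were read at the element nearest their TSS, and some items are not reported here.

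Replicate numbers came from the sample titles, and for 15 samples another label gives a different number. Same-numbered samples were taken as paired where every pair of their deviations from the condition means had r above 0.1. That held for p3 at day 5 (lowest r 0.33) and day 6 (0.17), pMN against p0-1 at days 4, 5 and 6 (0.27, 0.42 and 0.56), and SAG in p0-1 (0.64) and p2 (0.61). The main counts and p-values leave this pairing out in these comparisons too, and the block is given only as an alternative. Alternatives were the replicate block, no filter on the mean, a log2 fold change above 2, centring each sample on its median, voom on the recovered reads, and leaving out replicate 1, 2 or 3. Leaving out 1 library was added after seeing the data.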

Additional observations from a re-analysis of the deposited data

Results flagged for a closer look

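In 14 of 240 groups of 4 to 10 samples of the same type and day, the 20 named elements each being examined in every such group, a sample lay far from the others by Dixon's ratio. Chance flags about 1 in 20 groups. Of these samples, 7 belonged to a single library, the third replicate of p0-1 at day 4 with 10 nM SAG, which also had the highest share of reads at promoters. Its normalised counts stood above those of the other p0-1 samples of day 4 at Hes1 −72 (4195 against 2309 to 2939), Hes5 +353 (3017 against 1525 to 1878), Hes6 −322 (2186 against 1263 to 1588), Hes7 −1339 (1440.3 against 690.2 to 935), Hey1 −345 (3007 against 1199 to 1789), Hey2 −662 (2813 against 1379 to 1820.0) and Heyl +72 (262 against 113 to 157). The other high samples were Hes5 −7788 in replicate 3 of p2 at day 4 with 10 nM SAG (1450.0 against 925 to 1098), Hes5 −4037 in replicate 3 of p3 at day 6 with 100 nM SAG (31.5 against 19.8 to 20.8), Hes6 −7123 in replicate 2 of p3 at day 6 with 500 nM SAG (21.9 against 11.2 to 12.6), Hey1 −53916 in replicate 3 of p2 at day 6 with 100 nM SAG (331 against 70.9 to 124) and Hey2 −40740 in replicate 1 of pMN at day 4 with 500 nM SAG (1504 against 902 to 1115). Low samples were Hes1 +64437 in replicate 2 of p0-1 at day 4 with 10 nM SAG (967 against 1523 to 1745) and Heyl +72 in replicate 1 of p3 at day 4 with 500 nM SAG (93.1 against 149 to 171). What set these samples apart was not tested.

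For 5 members, the change from day 4 to day 6 differed between p3 and the other NPs, by the test of the difference itself. The differences in log2 change were −1.15 at Hes1 +64437 (adjusted p = 7.98e-08), −1.22 at Hes5 −7788 (2.29e-05), −1.32 at Hes5 −4037 (0.00938), −1.38 at Hey2 −40740 (0.00159) and 1.14 at Hes3 −1660 (4.04e-08). The call at Hes5 −4037 was lost without replicate 1, 2 or 3 (adjusted p = 0.0153, 0.162 and 0.0241) and with voom (0.239), and that of Hey2 −40740 without replicate 3 (0.178). That of Hes3 −1660 was lost without replicate 1, at 0.96, and the count was 3 without replicate 1 and 3 without replicate 3, against 9.48% and 8.44% of all elements.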

How the results depend on the processing

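Without the filter on the mean, more elements were tested and the called members were 28 for day 4 NPs against NMPs, 11 for day 6 against day 4, 10 for the interaction, 7, 14 and 13 for p3 at days 4, 5 and 6, and 4 and 13 for pMN against p0-1 at days 4 and 5, of 51 members tested, against 57.3%, 38.6%, 17.4%, 13.3%, 28.6%, 31.9%, 6.09% and 18.5% of all 111638 elements. At a log2 fold change above 2 they were 5, 0 and 0 for the first 3 of these, 0, 2 and 4 for p3, and 1 and 1 for pMN at days 5 and 6, against 23.5%, 8.11%, 2.4%, 1.25%, 6.43%, 10%, 1.97% and 2.98% of all elements, the stricter threshold being the cause. For pMN at day 6 the count without the filter is not given here. At that day Hey1 −24750, untested and named after its values were seen, had 103 to 144 normalised counts in pMN and 15.1 to 28.1 in p0-1. Leaving out a library or a replicate number gave counts of 3 to 5 for day 6 against day 4, 3 to 5 for the interaction, 1 to 5 for pMN at day 6 and 0 to 1 for SAG in p2, against 21.7 to 23.7%, 8.44 to 11.4%, 3.83 to 12.8% and 0 to 2.04% of all elements.

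With the replicate block, p0-1 at 10 against 0 nM had 1 called member, Hey2 −40740, and Hes3 +4723 was called for pMN at day 6. These were the 2 calls that the paired analysis changed among 367 tests of members over the 13 comparisons. For day 4 NPs against NMPs, day 6 against day 4, the interaction and p3 at day 4, the lowest r between same-numbered samples was −0.46, so that not every pair passed 0.1. The median r was 0.49, 0.37, 0.37 and 0.62 for the same number and −0.21, −0.22, −0.22 and −0.29 for different ones, and the block gave 11, 3, 5 and 4 called members, against 44.6%, 22.3%, 11.9% and 7.36% of all elements. SAG in pMN and p3 had 2 pairs each, and the block called 0 and 0 members.

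The other alternatives were read on 91 results of named elements in 5 comparisons (day 4 NPs against NMPs, day 6 against day 4, the interaction, p3 at day 6 and pMN at day 6), of which 53 are in comparisons that hold the doubted library. Of the 91, 88 kept direction and call with voom and 3 lost the call, and 77 kept both with centring, 3 losing and 1 gaining the call. Centring removes a shift common to all elements, and it turned the sign of Hes1 −72 (0.16), Hes3 +959 (0.34), Hey1 −50674 (0.18) and Hey2 −662 (0.40) for day 4 NPs against NMPs, of Hes7 −10025 (−0.15) and Hey2 −662 (−0.12) for day 6 against day 4, of Hes7 −1339 (0.0033) and Hey1 −69431 (0.072) for p3 at day 6, of Hes5 −7788 (−0.043) and Hey1 −345 (−0.035) for pMN at day 6. Leaving out replicate 1, 2 or 3 or the doubted library turned the sign of further results, given with their lowest and highest log2 fold change. For day 4 NPs against NMPs the results so turned were Hes1 +55520 (−0.14 to 0.26), Hes3 +959 (−0.10 to 0.0041), Hey1 −345 (−0.053 to 0.28) and Hey2 −662 (−0.11 to 0.10). For day 6 against day 4 the results so turned were Hes5 −4037 (−0.19 to 0.083) and Heyl +72 (−0.21 to 0.16). For the interaction the results so turned were Hes1 +55520 (−0.10 to 0.24), Hes7 −1339 (−0.028 to 0.26), Hey1 −53916 (−0.21 to 0.60), Hey1 −345 (−0.026 to 0.25) and Heyl +72 (−0.40 to 0.093). For p3 at day 6 the results so turned were Hes1 +55520 (−0.45 to 0.035), Hes7 −1339 (−0.19 to 0.017) and Hey1 −69431 (−0.38 to 0.27). For pMN at day 6 the results so turned were Hes1 −72 (−0.28 to 0.059), Hes1 +64437 (−0.23 to 0.0069), Hes5 −7788 (−0.14 to 0.11), Hes5 −4037 (−0.25 to 0.48), Hes5 +353 (−0.049 to 0.013) and Hey1 −345 (−0.030 to 0.068). None of the results whose sign turned was called, and the cause was not tested. Counts rest on 2 or 3 libraries a condition, and elements with a mean below 100 normalised counts were not tested.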
